A study of Macaca mulatta with 8 samples.

Results

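Genes of the TGF-beta, BMP and Wnt pathways were followed in mature (metaphase II, MII) eggs of the rhesus macaque, Macaca mulatta. The genes were taken by name from the platform annotation of an Affymetrix rhesus array. A gene was taken if its symbol starts with SMAD, BMP and a digit (BMP15 apart), BMPR, TGFB, ACVR, GDF, SMURF, WNT, FZD, DVL, AXIN, TCF7 or LEF1, or is CTNNB1, GSK3A, GSK3B or APC. This gave 144 of the 52766 probe sets on the array that are no controls, for 72 of 14132 genes. Of these, 33 are genes of the TGF-beta and BMP arm, 34 are of the Wnt arm and 5 are others that the name rule takes, such as TGFBI. No probe set of CTNNB1, LEF1, SMAD1, BMPR2, AXIN1 or GDF9 was analysed here.

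A group of 4 arrays held oocytes matured in the animal (in vivo) and a group of 4 arrays held oocytes matured in culture (in vitro). Each array carried amplified RNA from a pool of 4 oocytes, and the labels give no age of the animals, no hormone treatment and no culture medium. The pools of a group are described as biological replicates, but not traced to animals. All p-values here thus rest on the spread from pool to pool, which may in part be technical. Values are MAS5 signals, a brightness on a linear scale, and signals of different probe sets are not compared with each other.

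Ligands of the TGF-beta family are secreted dimers that bring together type II and type I receptor kinases at the cell surface. The type I receptor then phosphorylates SMAD proteins, SMAD2 and SMAD3 for TGF-beta and activin and SMAD5 with its relatives for BMPs, and these enter the nucleus with SMAD4. In the ovary the oocyte and its cumulus cells signal to each other through this family. Wnt ligands bind Frizzled receptors, which act through Dishevelled to inhibit a complex of AXIN, APC and GSK3 that otherwise marks beta-catenin for destruction, and beta-catenin then works with TCF factors on DNA.

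Background was read from 59 control probe sets whose transcripts were not added. Their 95th percentile lay between 15.7 and 27.0 on the 8 arrays, and 49.9% to 60.9% of all probe sets on an array lay above it. For the pathway probe sets the share was 47.9% to 61.8% on the in vivo arrays and 58.3% to 64.6% on the in vitro arrays. Of 17 measured oocyte markers, 15 lay above background on all 8 arrays, with summed signals of 58476 to 90298 in vivo and 57908 to 71642 in vitro, and TDRD1 passed the limma test as higher in vitro (adjusted p = 0.0316). Of 22 granulosa and cumulus markers 14 did, with sums of 25012 to 27695 in vivo and 23522 to 32532 in vitro, and NR5A1 and INHBB were not above background on any array. INHBA and STAR, both on that list, also passed as higher in vitro (limma adjusted p = 0.00216 and 0.00783). The other 18 tested markers of that list did not pass, and the median log2 fold change of the list was -0.05. At a limma unadjusted p under 0.05 there were 6 higher and 1 lower in vitro of the 20 tested. All tested probe sets had 4.66% higher and 5.61% lower. Of 12 markers of theca, stroma and endothelium 3 lay above background on all arrays (sums of 1106 to 1316 in vivo and 1140 to 1757 in vitro), with CYP17A1 and KDR on none. Of 9 blood and immune markers 0 did, and their sums of 230 to 337 in vivo and 130 to 191 in vitro did not overlap. The part of other cells in the values that follow was not tested, and in a pool the number of other cells and the RNA in each oocyte cannot be told apart.

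Detection differed between roles. In all, 34 of the 72 genes had a probe set above background on all 8 arrays, 34 on some arrays and 4 on no array. Among the TGF-beta family receptors 8 of 10 genes lay above background on all arrays, as did both SMURF genes, DVL2, all 3 TCF genes, 3 of 6 SMAD genes, 3 of 4 genes of the destruction complex and 5 of 9 Frizzled genes. Of the TGF-beta family ligands taken by name, only 2 of 15, BMP4 and BMP6, were above background on every array. Of the Wnt ligands 3 of 17 were, WNT5B, WNT10B and WNT11. The name rule leaves out other ligand genes of the TGF-beta family. Among those, BMP15 (885 to 998 in vivo, 1023 to 1270 in vitro) and INHBA were above background on all 8 arrays. WNT4, WNT6, WNT7A and FZD9 were above it on none, which limits these probe sets and not the genes. No probe set of the genes taken by name was above background on all arrays of a group and on no array of the other. These shares describe probe sets of differing quality and were not tested.

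**Figure D1:**
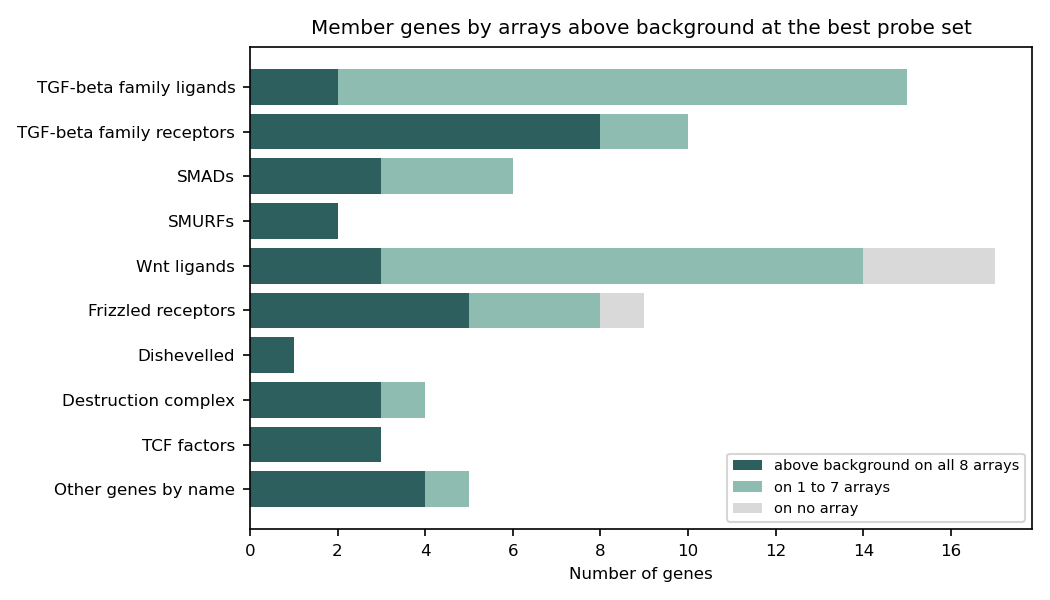
Number of genes (x axis) in each role (y axis), coloured by whether the probe set detected most often lay above background on all 8 arrays, on 1 to 7 or on none. Of the TGF-beta family receptors 8 of 10 genes fall in the first class, and of the Wnt ligands 3 of 17.

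The design sets maturation in culture against maturation in the animal. No gene taken by the name rule passed the test. Of the 144 probe sets, 76 for 47 genes were bright enough to be tested, and 0 of these 76 passed a limma adjusted p of 0.05, against 0.148% of the 26378 probe sets tested over the whole array. The smallest adjusted p was 0.285, for BMP4. At a limma unadjusted p under 0.05 there were 6 of 76 probe sets, 4 higher and 2 lower in vitro, which is 7.89% where all tested probe sets had 10.3% (4.66% higher and 5.61% lower). The groups did not overlap at 3 of 76 probe sets, or 3.95%, against 6.33% over the array (2 higher in vitro, against 3.18%, and 1 lower, against 3.15%). A log2 fold change past 1 in size, a 2-fold difference, was seen at 3 of 76, against 3.23% over the array. These shares are near those of the array as a whole, and the differences were not tested.

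How far the data limit a change differed by gene. The 95% interval of the log2 fold change, in vitro minus in vivo, lay wholly between -1 and 1 (less than a 2-fold difference either way) for 39 of 76 probe sets, 51.3%, against 54.8% over the array. All 7 Frizzled probe sets and all 5 SMURF probe sets had such narrow intervals, but only 1 of 9 ligand probe sets of the TGF-beta family. The median log2 fold change was 0.11 over the 76 probe sets and 0.00 over all tested. It was positive at 45 of them, or 59.2% where all tested probe sets had 50.5%, and negative at 31, and with each array centred on its median log2 value at 40 and 36. That centring moved the positive share to 52.6% for the pathway probe sets and to 44.9% for all tested, whose median became -0.05.

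**Figure D2:**
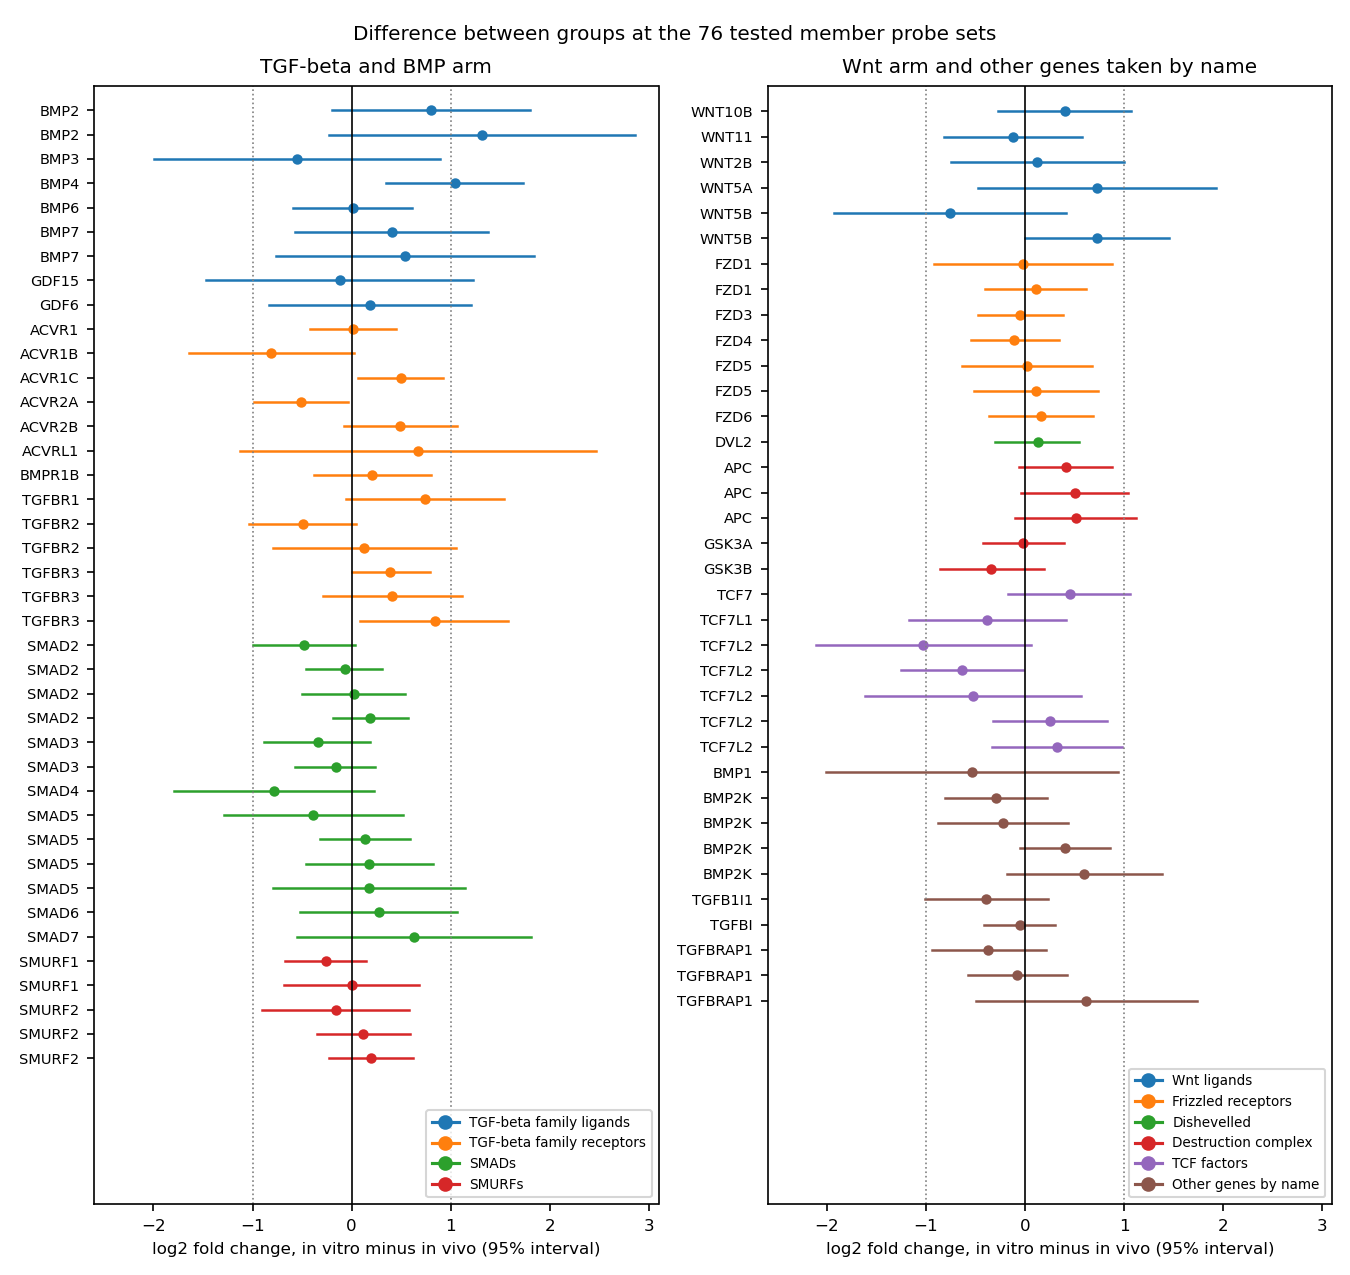
Log2 fold change, in vitro minus in vivo, with its 95% interval (x axis) for each of the 76 tested probe sets, labelled by gene and coloured by role, where dotted lines mark a 2-fold difference. The interval of BMP4 runs from 0.35 to 1.73, and the intervals of all 7 Frizzled probe sets lie inside the dotted lines.

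BMP4 is a BMP that acts in the ovary on follicle cells and in the embryo on early lineages. Among the genes taken by name it had the smallest p. Its signals on in vivo replicates 1 to 4 were 446, 473, 245 and 833, and on in vitro replicates 1 to 4 they were 1499, 977, 667 and 828. The 2 highest values were in vitro and the 3 lowest in vivo, but in vivo replicate 4 lay above 2 of the in vitro arrays, so the groups overlapped. The group means of BMP4 were 499 ± 245 (in vivo) and 993 ± 360 (in vitro; SD, n = 4 per group), a 2.06-fold difference (log2 fold change 1.04 ± 0.32 SE, limma unadjusted p = 0.0057, adjusted p = 0.285). In vivo replicate 4 also had the largest ratio of 3' to 5' signal at the EEF1A1 control transcript, 12.84 where the other arrays had 2.70 to 7.70, a measure of how far amplified RNA reaches from the 3' end. At the beta-actin and GAPDH controls the largest ratios, 149.98 and 49.42, were on in vivo replicate 2. In vivo replicate 4 had 107.71 and 24.82 there. Without in vivo replicate 4 the log2 fold change of BMP4 was 1.33 at a limma adjusted p of 0.0592. With the EEF1A1 ratio as a covariate in the fit, chosen after seeing the data, it was 1.21 and passed at 0.0375. With the beta-actin ratio instead, also added later, it was 1.09 and did not pass (limma adjusted p = 0.208). It was 0.75 (limma adjusted p = 0.45) without in vivo replicate 3, the lowest array, and 0.82 (limma adjusted p = 0.62) without in vitro replicate 1, the highest.

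BMP2, a close relative of BMP4, was dim and uneven. Its signals were 10.4, 33.8, 60.5 and 5.1 in vivo and 111, 5.1, 73.4 and 205 in vitro, so that the in vitro group held both the highest value and a value equal to the lowest. The log2 fold change was 1.32 with an interval from -0.23 to 2.86, and at its other tested probe set 0.80 with an interval from -0.20 to 1.80. BMP6, an oocyte-derived BMP, had 112, 167, 239 and 102 in vivo and 138, 113, 175 and 176 in vitro, overlapping throughout (log2 fold change 0.01). BMP7, a BMP of kidney and ovary, had 0.41 and 0.54 at its tested probe sets, with intervals from -0.57 to 1.38 and from -0.76 to 1.84. GDF15, a stress-induced member of the family, had -0.12 with an interval from -1.47 to 1.23. BMP3, which opposes other BMPs, stood at -0.55, with in vivo replicate 1 at 107 where the other in vivo arrays had 3.8 to 20.5. GDF6 had 0.19. The other 8 ligand genes, among them TGFB1, TGFB3, GDF3 and GDF11, were too dim to be tested. Of those, GDF2, which encodes a ligand of endothelial receptors, had 8.5, 5.8, 5.9 and 6.6 in vivo and 15.8, 22.2, 36.0 and 28.5 in vitro. Among the 68 untested probe sets of the genes taken by name it was the single one whose groups did not overlap. The share among all untested probe sets of the array was not counted, and tested ones had 6.33%. The GDF2 probe set was above background on 3 in vitro arrays only.

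Receptors supplied 3 of the 6 probe sets at a limma unadjusted p under 0.05 and all 3 whose groups did not overlap. Each count is 3 of 13 receptor probe sets, or 23.1%. All tested probe sets had 10.3% at that p and 6.33% without overlap, and the differences were not tested. ACVR1C, a type I receptor used by nodal and some activins, had 429, 316, 274 and 289 in vivo and 440, 448, 439 and 505 in vitro. Every in vitro array was above every in vivo array, although in vivo replicate 1 came close to them. The difference was 1.41-fold (log2 fold change 0.50 ± 0.20 SE, limma adjusted p = 0.408). ACVR2A, a type II receptor for activins and BMPs, had 220, 317, 222 and 276 in vivo and 155, 161, 175 and 224 in vitro. In vivo replicates 2 and 4 were above all in vitro arrays, and in vivo replicates 1 and 3 just below in vitro replicate 4, the highest of its group (log2 fold change -0.51 ± 0.22 SE, limma adjusted p = 0.439).

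The related type II receptor gene ACVR2B showed a different pattern. Its in vivo signals were 1357, 1450, 643 and 590 and its in vitro signals 1329, 1296, 1286 and 1334. The in vitro arrays were nearly equal, and in vivo replicates 3 and 4 were below them all, while replicates 1 and 2 were above. The mean was 1010 ± 457 over the in vivo arrays and 1311 ± 23.7 over the in vitro arrays (SD, n = 4 per group), with a log2 fold change of 0.49 and an interval from -0.08 to 1.07. ACVR1B, the main type I receptor of activin, had 125, 41.7, 133 and 47.7 in vivo and 36.2, 59.1, 46.1 and 25.8 in vitro. Only in vivo replicates 1 and 3 stood above the in vitro range (log2 fold change -0.81 ± 0.39 SE, limma adjusted p = 0.5).

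TGFBR3, or betaglycan, binds TGF-beta and inhibin and presents them to other receptors. Of its 3 probe sets the brightest had 381, 504, 397 and 439 in vivo and 508, 646, 591 and 524 in vitro, so that all in vitro arrays were higher (log2 fold change 0.39, limma unadjusted p = 0.0525). Another had 32.8, 40.8, 30.8 and 22.8 in vivo against 33.3, 88.1, 85.0 and 58.4 in vitro, close to background and overlapping at in vitro replicate 1 (log2 fold change 0.84, limma adjusted p = 0.418). The remaining one, of a type whose probes may bind other transcripts too, had 0.41. TGFBR2, the type II receptor of TGF-beta, had 943, 1099, 2289 and 939 in vivo and 743, 897, 930 and 904 in vitro. The groups only just failed to overlap, and in vivo replicate 3 was far above the rest. The log2 fold change of -0.49 became -0.19 without that array, and a second TGFBR2 probe set had 0.13. TGFBR1, its type I partner, had 0.74 with an interval from -0.06 to 1.54, from 92.9, 32.1, 69.0 and 22.6 in vivo and 89.6, 59.9, 81.5 and 118 in vitro.

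The remaining receptor genes gave values near 0 or rested on a single array. ACVR1, a type I receptor of BMPs, had a log2 fold change of 0.01 with an interval from -0.42 to 0.45, and BMPR1B, also a BMP receptor, had 0.21. ACVRL1, a type I receptor best known from endothelium, was not above background on 6 of the 8 arrays but at 280 on in vitro replicate 1. Of the endothelial markers, KDR was above background on no array, and CDH5, PECAM1 and VWF were above it on all 8 with log2 fold changes of -0.18, 0.38 and -0.41. Their part in the ACVRL1 value was not tested. Over the 13 receptor probe sets 10 had a positive and 3 a negative log2 fold change with a median of 0.39, against 0.00 over all tested. With each array centred on its median the counts were 9 and 4, or 69.2% positive against 44.9% of all tested probe sets.

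**Figure D3:**
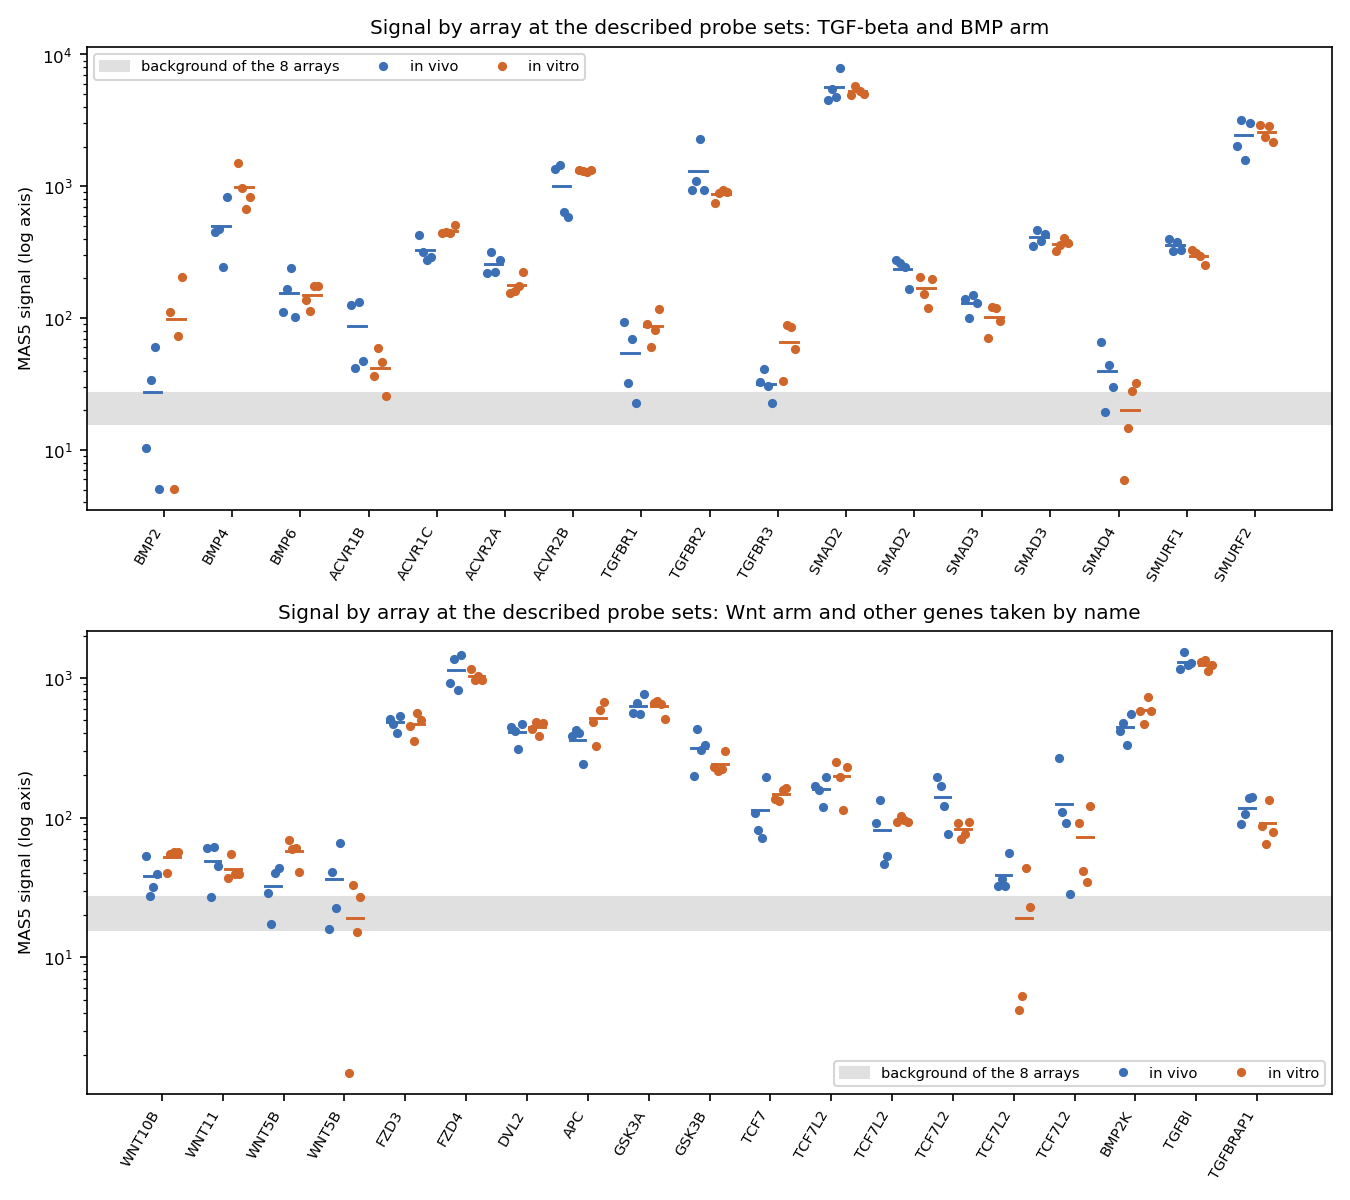
MAS5 signal on a log axis at each described probe set (x axis, gene symbol), with a point for each array, a bar for the group mean and the range of background on the 8 arrays shaded. For ACVR2B the 4 in vitro points lie between 1286 and 1334 while the in vivo points run from 590 to 1450, and for BMP4 the in vivo point at 833 lies among the in vitro points.

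SMAD2, a SMAD of the TGF-beta and activin branch, was measured above background on all arrays by all 4 of its probe sets, which differed in sign. At the probe set with the highest mean the signals were 4494, 5480, 4777 and 7893 in vivo and 4955, 5788, 5265 and 5039 in vitro. The groups overlapped, with a log2 fold change of -0.07 and an interval from -0.46 to 0.31. The others had 0.19, 0.02 and -0.48, the last from 278, 262, 242 and 168 in vivo against 206, 153, 119 and 197 in vitro (limma adjusted p = 0.527). SMAD3, its partner in that branch, had 356, 463, 382 and 438 in vivo and 323, 360, 403 and 372 in vitro (log2 fold change -0.16, interval from -0.57 to 0.24) and -0.34 at its other tested probe set.

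SMAD5, of the BMP branch, had 281, 413, 281 and 421 in vivo and 361, 364, 346 and 443 in vitro at its brightest probe set (log2 fold change 0.14, interval from -0.32 to 0.59). Its 3 other tested probe sets had 0.18, 0.18 and -0.39. SMAD4, the common partner of both branches, was near background at its tested probe set, with 65.9, 19.5, 44.0 and 29.9 in vivo and 5.9, 14.8, 28.0 and 32.1 in vitro (log2 fold change -0.78, interval from -1.79 to 0.23). The inhibitory SMADs gave wide intervals too. SMAD7 had 138, 15.1, 71.4 and 11.6 in vivo and 58.6, 55.8, 47.0 and 123 in vitro, so that the in vivo arrays reached above and below all in vitro ones (log2 fold change 0.63), and SMAD6 had 0.28. The ubiquitin ligases that bind SMADs were steadier. SMURF2 had 2009, 3172, 1591 and 3031 in vivo and 2896, 2356, 2878 and 2184 in vitro (log2 fold change 0.12, interval from -0.35 to 0.59). SMURF1 had 398, 321, 381 and 330 in vivo and 326, 311, 298 and 254 in vitro (log2 fold change -0.26, interval from -0.67 to 0.15).

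Few Wnt ligands could be tested. WNT5B, a ligand that mostly signals without beta-catenin, had 28.9, 17.3, 40.3 and 43.6 in vivo and 69.3, 59.7, 60.6 and 40.9 in vitro at 1 probe set. The in vitro arrays were higher but for replicate 4, which lay among the in vivo values (log2 fold change 0.73 ± 0.34 SE, limma unadjusted p = 0.0496, adjusted p = 0.486). The other tested WNT5B probe set had the opposite sign, -0.76, with signals of 16.0, 40.9, 22.7 and 66.2 in vivo and 1.5, 33.1, 15.1 and 27.2 in vitro that reached below background. WNT10B had 0.40, WNT11 had -0.12, WNT2B had 0.12 and WNT5A had 0.73 with an interval from -0.47 to 1.93. WNT11 had 60.9, 27.2, 62.1 and 44.7 in vivo and 37.2, 54.5, 39.8 and 39.3 in vitro, values that overlapped. The other 12 Wnt genes were too dim to be tested.

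Frizzled receptors had differences near 0. The log2 fold changes of their 7 tested probe sets ran from -0.11 to 0.16, and 0 had a limma unadjusted p under 0.05. FZD4 had 910, 1361, 823 and 1459 in vivo and 1146, 967, 1032 and 968 in vitro, all in vitro values lying inside the in vivo range (log2 fold change -0.11, interval from -0.55 to 0.34). FZD3 had 511, 471, 401 and 532 in vivo and 450, 353, 561 and 501 in vitro (log2 fold change -0.05, interval from -0.48 to 0.38). FZD1, FZD5 and FZD6 stayed within the same range of log2 fold changes. DVL2, the Dishevelled gene of the set, had 445, 419, 308 and 463 in vivo and 430, 480, 386 and 476 in vitro, with a log2 fold change of 0.13 and an interval from -0.30 to 0.55.

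In the destruction complex the 3 probe sets of APC, the scaffold gene, gave 0.50, 0.51 and 0.41 on the log2 scale, of which 0 passed. The probe set with the smallest p had 381, 421, 400 and 241 in vivo and 484, 328, 591 and 675 in vitro. All in vitro arrays but replicate 2 were above the in vivo arrays (interval from -0.04 to 1.04, limma adjusted p = 0.525). GSK3A, a kinase that marks beta-catenin, had 556, 663, 550 and 760 in vivo and 661, 677, 648 and 509 in vitro (log2 fold change -0.02, interval from -0.42 to 0.39). Its relative GSK3B had 199, 432, 305 and 332 in vivo and 232, 214, 223 and 301 in vitro (log2 fold change -0.34, interval from -0.86 to 0.19). AXIN2, itself a known target of Wnt signalling, was too dim to be tested at any of its 4 probe sets.

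Of the TCF factors, TCF7L2 had 5 tested probe sets with both signs. At 1 of them the signals were 195, 167, 121 and 76.4 in vivo and 92.2, 70.4, 76.3 and 92.4 in vitro, so that in vivo replicates 1 to 3 were above all in vitro arrays and replicate 4 was among them (log2 fold change -0.64 ± 0.29 SE, limma unadjusted p = 0.0429, adjusted p = 0.466). The other tested probe sets had -1.03, -0.53, 0.25 and 0.32. Since these probe sets can read different parts of a transcript, they give no single direction for the gene. TCF7 had 107, 81.0, 71.6 and 196 in vivo and 137, 132, 158 and 163 in vitro (log2 fold change 0.45, interval from -0.17 to 1.06), and TCF7L1, a factor that mostly represses, had -0.38. Over all pathway genes, 9 of the 16 with more than 1 tested probe set had both signs among them.

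The 5 other genes taken by the name rule gave 10 tested probe sets. TGFBI, a matrix protein named for its induction by TGF-beta, had 1152, 1525, 1227 and 1277 in vivo and 1294, 1338, 1116 and 1224 in vitro, groups that overlapped throughout (log2 fold change -0.05, interval from -0.41 to 0.30). BMP2K, a kinase of membrane traffic, had 0.40 at the probe set with the smallest p, from 417, 473, 331 and 552 in vivo and 575, 470, 723 and 578 in vitro, and 0.60, -0.22 and -0.29 at the others. TGFBRAP1, which binds TGF-beta receptors, had -0.37, -0.08 and 0.62. TGFB1I1, an adaptor of focal adhesions, had -0.39, and BMP1, a protease of matrix and BMP inhibitors, had -0.54 with an interval from -2.01 to 0.94.

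Pathway genes outside the name rule were read from a list of 62 TGF-beta and BMP genes and a list of 81 Wnt genes. Of 35 tested genes of the TGF-beta and BMP list, 1 rose (INHBA, the activin beta A subunit), 0 fell and 34 did not pass, with a median log2 fold change of 0.06. At a limma unadjusted p under 0.05 there were 8 higher and 1 lower of the 35, where all tested probe sets had 4.66% higher and 5.61% lower. INHBA had 252, 157, 176 and 75.9 in vivo and 2529, 1366, 744 and 1295 in vitro, 8.46-fold higher with no overlap (limma adjusted p = 0.00216, and 0.0613 without the intensity trend). It is also a granulosa marker, whose list is given above. Of 54 tested Wnt genes 0 passed, with 4 higher and 4 lower at a limma unadjusted p under 0.05, against the same 4.66% and 5.61%, and a median of 0.01. ID3, a textbook target of BMP signalling that blocks helix-loop-helix factors, had 155, 47.6, 89.3 and 60.5 in vivo and 268, 265, 237 and 267 in vitro. All in vitro arrays were above all in vivo arrays and close to each other. The difference was 3.02-fold (log2 fold change 1.60 ± 0.30 SE) at a limma adjusted p of 0.0521, which does not pass. That p lay between 0.00406 and 0.219 over the alternatives tried. It was 0.00406 without in vivo replicate 1, the highest in vivo array, and 0.198 without in vitro replicate 1.

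Further genes of both lists are given as values. ID4, a relative of ID3 chosen after its values were seen, had 242, 110, 246 and 93.1 in vivo and 208, 366, 279 and 259 in vitro (a log2 difference of 0.76 at a limma adjusted p of 0.418). BMPER, a secreted BMP-binding protein, did not exceed background in vivo, at 3.4, 14.3, 19.6 and 12.3, and exceeded it on all in vitro arrays, at 37.5, 33.7, 31.5 and 61.7, which makes it at least 1.57-fold higher there (limma adjusted p = 0.345). STRAP, which binds TGF-beta receptors and SMAD7, had a mean of 798 ± 91.0 on the in vivo arrays and of 1224 ± 285 on those in vitro (SD, n = 4 per group), with a limma adjusted p of 0.327. INHA, the inhibin alpha subunit, GREM1, a secreted BMP inhibitor, and SFRP1, a secreted Wnt inhibitor, were chosen after their values were seen. They had 0.59, 0.93 and 1.12 on the log2 scale, of which 0 passed. Like INHBA, INHA and GREM1 are also on the list of granulosa and cumulus markers above. On the TGF-beta and BMP list LTBP2 was the 1 gene lower in vitro at a limma unadjusted p under 0.05, against 8 higher. It had -0.94 (limma unadjusted p = 0.0412, adjusted p = 0.46). On the Wnt list, DKK3, a secreted protein of the Dickkopf family, had 918, 352, 1810 and 314 in vivo and 314, 340, 236 and 91.4 in vitro. Its in vivo replicates 1 and 3 were far above the rest (log2 fold change -1.54 ± 0.50 SE, limma adjusted p = 0.305). LGR4, a receptor of R-spondins, had -0.77, and VANGL1, a planar polarity gene, had -0.51 with groups that did not overlap. PORCN, the enzyme that lipid-modifies Wnt ligands for secretion, had 175, 150, 172 and 156 in vivo and 352, 231, 187 and 315 in vitro, all in vitro arrays being higher (log2 fold change 0.67, limma adjusted p = 0.345).

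**Figure D4:**
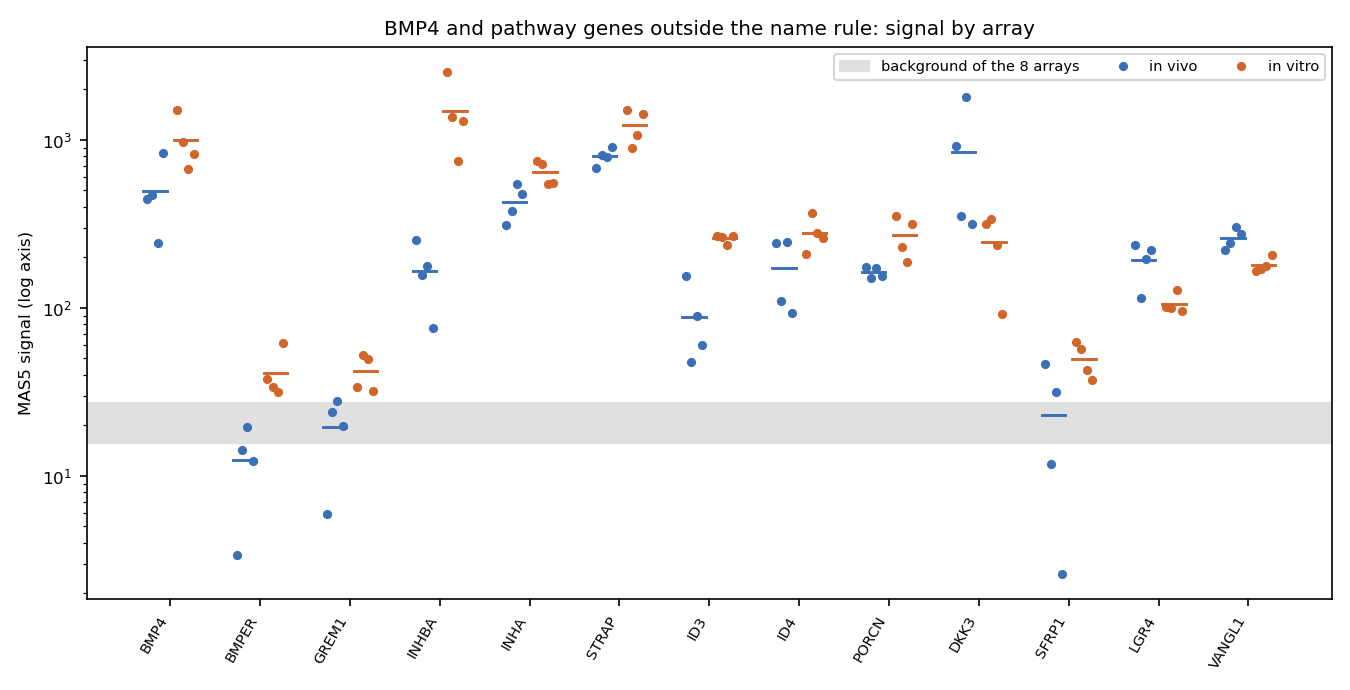
MAS5 signal on a log axis for BMP4 and for pathway genes outside the name rule (x axis), with a point for each array, a bar for the group mean and background shaded. The ID3 points lie between 237 and 268 in vitro and between 47.6 and 155 in vivo, and those of DKK3 reach 1810 in vivo.

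The pools matured in the animal varied more among themselves than those matured in culture. The standard deviation of the log2 values was larger in vivo at 54 of the 76 tested pathway probe sets, or 71.1%, where it was larger at 66.4% of all tested probe sets. Its median over the pathway probe sets was 0.45 in vivo and 0.28 in vitro, against 0.43 and 0.32 over the array. ACVR2B and SMAD7 above are examples. SMAD2 varied more in vivo at its brightest probe set and more in vitro at its 3 others. In ACVR1B, TGFBR1, SMAD7 and DKK3, singled out after their values were seen, in vivo replicates 1 and 3 lay above replicates 2 and 4. Among the tested markers of the granulosa and cumulus list, the same order was seen in VIM, FST, NR5A2, HSD17B1, INHBA and AMHR2. These too were read after their values were seen. NR5A2, for example, had 242, 74.8, 258 and 46.4. In the other tested markers of that list, among them SERPINE2, VCAN, TIMP1, STAR, INHA, HAS2, CYP19A1, EFEMP1 and GREM1, the order differed. DCN of the theca, stroma and endothelium list had it, and the other tested markers of that list did not. How often this order occurs over all tested probe sets was not counted. In vivo replicates 1 and 3 also had the lowest EEF1A1 ratios of 3' to 5' signal, 2.70 and 2.72. In vivo replicates 2 and 4 had 7.70 and 12.84, and the in vitro arrays had 3.59 to 4.91. The part of that ratio and of other cells in these values was not tested.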

How the data were processed

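Total RNA from pools of 4 metaphase II oocytes went through 2 rounds of amplification into biotin-labelled targets for single-colour Affymetrix arrays, per the labels' protocols. The deposited intensity values are MAS5 signals, per the submitters' processing notes, with no version given. Each array had a 2% trimmed mean of 150. Such signals vary strongly for dim probe sets.

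Of 52766 probe sets other than controls, 24956 had 1 gene symbol. Signals were taken as log2(signal + 8.2), the 25th percentile of all signals, which understates changes of dim transcripts. Probe sets with a mean signal above the 50th percentile were tested (26378). The test was limma 3.58.1 under R 4.3.3, with lmFit and a trended eBayes and the difference taken as in vitro minus in vivo, and with Benjamini-Hochberg adjustment over all tested probe sets at 0.05. The fit was tested on simulated data with the means and spreads of the tested probe sets. Of 50 probe sets changed 2-fold, 26% passed a limma adjusted p of 0.05. Of 50 changed 4-fold 76% passed, and of 50 changed 8-fold 98%. A 2-fold change would thus mostly be missed. For a gene at or below background on all arrays of a group, the fold is also given with that group raised to background. Such a fold carries no sampling error.

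The genes, lists and tests were chosen with earlier results of these data known. Described are the 20 genes with the smallest p, the 2 genes of highest mean in each role, genes whose probe sets disagree in sign beside an unadjusted p under 0.05, and the 4 genes of smallest p in each further list. Other pathway genes are named to account for them. For genes outside the name rule the brightest tested probe set was used. The number of arrays limits the precision. Same-numbered arrays were not paired. Alternatives were other pseudocounts, filters, normalizations, variance models, a block, control-transcript ratios as covariates and leaving out each array. No gene coordinates or sequences are given.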

Additional observations from a re-analysis of the deposited data

Results flagged for a closer look

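In 11 of 168 groups of 4 arrays, from 84 probe sets, a single array was set apart from the other 3 by Dixon's criterion. The criterion weighs a gap against the range of its group, so a flagged gap can be small in size. For normally distributed values chance alone gives about 1 in 20 groups. The criterion was applied to linear signals, for which that rate need not hold. Among receptors, ACVRL1 was at 279.8 on in vitro replicate 1 where the next in vitro array had 13.7, ACVR1C was at 505.1 on in vitro replicate 4 where the next had 448.3, and TGFBR2 was at 2289 on in vivo replicate 3 where the next had 1099. SMAD7 was at 122.9 on in vitro replicate 4, against 58.6 on the next array. BMP3 was at 106.8 and TGFB1I1 at 170.4 on in vivo replicate 1, against 20.5 and 83.0. In the Wnt arm FZD6 was at 268.0 on in vitro replicate 4, against 166.4 on the next array. WNT11 was at 54.5 on in vitro replicate 2 and WNT2B at 48.0 on in vitro replicate 1, against 39.8 and 25.7. WNT10B was low on in vitro replicate 1, at 39.9 against 54.6. ID3 was at 237.2 on in vitro replicate 3, below the other in vitro arrays at 265.1 or more.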

How the results depend on the processing

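No probe set of the genes taken by name passed a limma adjusted p of 0.05 under the other pseudocounts, filters, normalizations and variance models. The same held with the replicate block, and with each array left out in turn the count was 0 throughout. With the EEF1A1 ratio as a term in the fit, added after seeing the data, 1 passed (BMP4), 11 had an unadjusted p under 0.05 (15.6% of all tested probe sets did) and 4 of the further pathway genes passed. With the beta-actin ratio, also added later, 10 of 76 had a limma unadjusted p under 0.05 and 2 of the further genes passed. Over the array 3120 of 26378 probe sets had such a p with that ratio. The count at a limma unadjusted p under 0.05 was 3 to 10 with an array left out. It was lowest without in vitro replicate 3, with 3 of 78, where 2221 of 26374 over the array had such a p. It was highest without in vivo replicate 4, with 10 of 72, where 3565 of 26378 over the array did. The median log2 fold change stayed between 0.01 and 0.13. Among the further pathway genes 2 passed (INHBA and ID3) with a pseudocount of 27.7, all probe sets tested, only those above the 75th percentile, quantile normalization, centring on medians, a robust trend or weighted arrays, 0 passed without the intensity trend, and 1 to 2 with an array left out.

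With the replicate number as a block, 3 of 76 pathway probe sets had a limma unadjusted p under 0.05 and 0 passed the adjusted threshold. In that fit 2554 of 26378 probe sets over the array had such an unadjusted p. Over the array as a whole, 39 probe sets passed, against 7 without the intensity trend, 25 with normal scores, 88 with array weights, 303 with the EEF1A1 ratio, 62 with the beta-actin ratio, and 19 (without in vitro replicate 1) to 96 (without in vivo replicate 4) with an array left out. Same-numbered arrays did not deviate together (correlations of -0.045 to 0.011 over tested probe sets), and 0 of 8 arrays correlated best with its own number. The labels do not say whether they share an animal.

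The sign changed in at least 1 setting at 23 of the 76 tested pathway probe sets, 16 of them in a setting other than leaving out an array. Of these 23, 0 had an unadjusted p under 0.05, and their log2 fold changes were at most 0.41 in size, the highest being BMP7 with a range of -0.04 to 0.82. GDF6 ranged from -0.14 to 0.46, SMAD5 at 1 of its probe sets from -0.11 to 0.48 and TGFBR2 at the second of its probe sets from -0.30 to 0.56. GSK3A became 0.02 with quantile normalization, 0.01 with normal scores within each array, 0.05 with the EEF1A1 ratio and 0.03 with the beta-actin ratio. BMP6 became -0.04 with median centring, -0.06 with array weights, -0.07 with the EEF1A1 ratio and -0.03 with the beta-actin ratio. FZD3 became 0.00 with quantile normalization and with normal scores, WNT11 became 0.07 with array weights, and FZD4 0.00 and SMAD2 0.03 with the EEF1A1 ratio. With an array left out the ranges were -0.08 to 0.08 for GSK3A, -0.15 to 0.24 for BMP6, -0.14 to 0.07 for FZD3, -0.25 to 0.03 for FZD4, -0.17 to 0.10 for SMAD2, -0.11 to 0.03 for TGFBI, -0.07 to 0.26 for SMURF2 and 0.00 to 0.19 for DVL2. The cause was not tested. Probe sets near background, among them BMP2, SMAD4 and most ligands, give wide intervals at this number of arrays.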
